A study of Mus musculus with 6 samples.

Results

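The genes that write, copy, erase or restrain DNA methylation were followed in single mouse morulae with and without Rbpj, the gene of the transcription factor through which activated Notch reaches its targets. They were taken by name, Dnmt1, Dnmt3a, Dnmt3b, Dnmt3l, Uhrf1, Tet1, Tet2, Tet3, Tdg and Dppa3, and all 10 were among the 12125 genes of the expression table. RNA of whole morulae flushed from the oviduct at embryonic day 2.5 (E2.5) was amplified from poly(A) tails, and 1 library was sequenced per embryo. The mutants were 3 Rbpj-/- embryos, homozygous for a null allele, 2 of litter 808 (embryos 6 and 7) and 1 of litter 810 (embryo 4). The controls were 3 embryos of litter 808, the heterozygote (embryo 1) and the wildtype embryos 3 and 4. The numbers 808 and 810 come from the sample titles and were taken as litters, though neither the titles nor the paper call them so. The mutant allele was kept in heterozygous animals of an outbred background, and the mothers were not superovulated. Genotypes were assigned by the authors from the reads of Rbpj itself and of Neo. For that reason Rbpj, at 10.5, 24.3 and 1.32 in Rbpj-/- embryos 6, 7 and 4 and at 37.0, 111 and 96.9 in control embryos 1, 3 and 4, is no independent check of them.

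DNA methylation in mammals is laid down on CpG sites by the de novo enzymes DNMT3A and DNMT3B, with DNMT3L as a catalytically inactive partner, and is copied after replication by DNMT1, which UHRF1 brings to hemimethylated DNA. The TET enzymes oxidise methylcytosine, and TDG excises the most oxidised products so that repair can restore cytosine. The preimplantation embryo is known for losing most of the methylation inherited from the gametes, during which DPPA3 (also called Stella), a maternal protein, shields part of the genome from oxidation by TET3 and keeps UHRF1 from chromatin.

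Values are CPM after TMM scaling, called normalised values here, and embryos are always given in the order 6, 7 and 4 for Rbpj-/- and 1, 3 and 4 for controls. The libraries of the Rbpj-/- embryos were shallower, with 2962425 to 10064016 reads, against 12690030 to 14585313 reads in controls. These reads were recovered from the values and cover the genes of the table only. A count of 3 reads, taken as the limit that a count of 0 allows, corresponds to a value of 0.201 to 1.09. All 10 markers of the embryo were in the table, at a summed value of 1287 to 2216 in Rbpj-/- embryos and 2068 to 2503 in controls, and none of 10 cumulus cell markers was. Of 7 oviduct markers 5 were in the table, at a sum of 14.0 to 138 in Rbpj-/- embryos and 34.5 to 125 in controls. Each library is a whole embryo, so that fewer cells of a type and less RNA per cell cannot be told apart.

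Between the littermates of litter 808, 2 Rbpj-/- and 3 control embryos, limma called 6 of the 10 genes lower in Rbpj-/- embryos. They were Dnmt1, Dnmt3a, Dnmt3b, Tet1, Tet2 and Tet3, and Dppa3 was called higher. Of all genes tested, 11.3% were called lower there and 5.85% higher. Over all 6 embryos, with the Rbpj-/- embryo of litter 810 included, no gene of the table passed the test. The genes that fell include writers and erasers of methylation. Dnmt3l, Uhrf1 and Tdg did not pass either test. The genes that fell have long transcripts and Dppa3 a short one, and over the whole table the fold change ran with transcript length. Once that trend was removed, only Dnmt3b of the 10 passed between littermates, as a lower gene, beside 6.7% of all genes.

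Windows of 250 bases before to 50 bases after annotated start sites (RefSeq, GRCm38.p6) were searched for TGGGAA, the core of the site that RBPJ binds, on both strands, where it also reads TTCCCA. RefSeq windows were at hand for 9 of the 10 genes, 16 windows in all. The core was found in 4 windows, 1 each of Dnmt1, Dnmt3a, Tet1 and Tet3, and in 25.6% of all 32851 windows. The longer GTGGGAA, which contains the core, was in none of the 16 and in 6.38% of all. The 250 bases before the start site are shown for Dnmt3b, the member that held its call with the length trend removed, and for a window of Dnmt1 and of Tet1 that contain the core, which is in capitals. All are written 5′ to 3′ along the gene. Dnmt3b lies on the plus strand (chr2:153649199-153649448) and shows no core. Dnmt1 lies on the minus strand (chr9:20959889-20960138), with the core starting at 140 bases before the start site of its most upstream window and read as TTCCCA. Tet1 lies on the minus strand (chr10:62887325-62887574), with TGGGAA starting at 170 bases before the start site.
Dnmt3b: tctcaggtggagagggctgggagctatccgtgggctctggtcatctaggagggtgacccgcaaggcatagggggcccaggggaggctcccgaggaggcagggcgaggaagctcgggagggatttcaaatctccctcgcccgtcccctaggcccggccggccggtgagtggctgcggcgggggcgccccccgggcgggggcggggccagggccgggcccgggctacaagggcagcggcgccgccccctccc
Dnmt1: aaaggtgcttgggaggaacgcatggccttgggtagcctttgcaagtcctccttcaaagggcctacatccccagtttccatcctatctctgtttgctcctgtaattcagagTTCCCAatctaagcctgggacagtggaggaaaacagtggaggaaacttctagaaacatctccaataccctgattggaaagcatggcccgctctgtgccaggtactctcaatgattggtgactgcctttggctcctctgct
Tet1: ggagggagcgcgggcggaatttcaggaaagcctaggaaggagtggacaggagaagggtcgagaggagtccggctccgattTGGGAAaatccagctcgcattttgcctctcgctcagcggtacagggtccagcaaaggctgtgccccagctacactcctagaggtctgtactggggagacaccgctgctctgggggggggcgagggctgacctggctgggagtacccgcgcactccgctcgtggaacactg
These windows differed in base composition, with 30 CpG dinucleotides in the 300 bases of Dnmt3b, 17 in those of Tet1 and 2 in those of this window of Dnmt1. A match is a run of letters and was not tested as a binding site. Genes with the core (Dnmt1, Tet1) and without it (Dnmt3b, Tet2) were both among those lower in Rbpj-/- embryos.

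Dnmt1, which copies methylation to the new DNA strand, had normalised values of 21.4, 7.62 and 18.8 in Rbpj-/- embryos, against 37.1, 46.0 and 51.0 in controls. Every Rbpj-/- embryo lay below every control, and embryo 7 was the lowest with 31 reads. The gene lies at chr9:20907209-20959888 on the minus strand (GRCm38), with a longest transcript of 5.87 kb. Its mean was 16.0 ± 7.33 in Rbpj-/- embryos and 44.7 ± 7.02 in controls (SD, n = 3 each). The log2 fold change, on the scale of value + 1, was -1.71 ± 0.51 (SE) between littermates, with an adjusted p of 0.0469 by limma, the weakest of the 7 calls. Over all 6 embryos it was -1.53 ± 0.50, with an adjusted p of 0.202 by limma.

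Uhrf1, which recruits DNMT1 to replicated DNA, had close values in the mutants, 4.72, 5.41 and 5.18 in Rbpj-/- embryos, against 17.5, 11.5 and 38.1 in controls. The groups did not overlap, and the spread lay among the controls, where wildtype embryo 4 was well above wildtype embryo 3. Behind these values stood 13, 22 and 55 reads in Rbpj-/- embryos and 228, 171 and 568 reads in controls. The gene (chr17:56303321-56323486, plus strand) did not pass the limma test between littermates, at -1.78 ± 0.68 and an adjusted p of 0.102, and was called there by DESeq2 alone of the alternatives, at an adjusted p of 0.0392.

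Dnmt3b, a de novo methyltransferase, had values of 35.2, 64.9 and 113 in Rbpj-/- embryos, against 173, 224 and 184 in controls. No Rbpj-/- embryo reached the lowest control, and the mutant of litter 810 lay closest to it. On average it was at 71.0 ± 39.1 in Rbpj-/- embryos and 194 ± 26.7 in controls (SD, n = 3 each). Between littermates Dnmt3b (chr2:153649450-153687730, plus strand) fell by 1.99 on the log2 scale (SE 0.31, limma adjusted p = 0.00460). It was called in 17 of the 18 alternatives to that comparison, with adjusted p-values of 6.42e-07 to 0.0625 by limma, edgeR or DESeq2.

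Dnmt3a, the other de novo enzyme, had values of 42.8, 59.7 and 104 in Rbpj-/- embryos, against 88.9, 132 and 179 in controls. Here the groups overlapped, since the mutant of litter 810 lay above the heterozygote. Dnmt3a (chr12:3806007-3914443, plus strand) passed between littermates at -1.32 ± 0.34 (limma adjusted p = 0.0290) and was at -0.98 ± 0.41 over all 6 embryos (limma adjusted p = 0.274).

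Dnmt3l, the partner without catalytic activity, had values of 74.0, 28.8 and 34.8 in Rbpj-/- embryos, against 39.0, 62.8 and 28.4 in controls. The groups were interleaved, with the highest embryo a mutant and the lowest a control. Dnmt3l (chr10:78041947-78063622, plus strand) was at 0.16 ± 0.49 between littermates, with a 95% interval of -0.94 to 1.27 (limma adjusted p = 0.855).

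The plot of single values sets the 10 genes side by side.

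**Figure D1:**
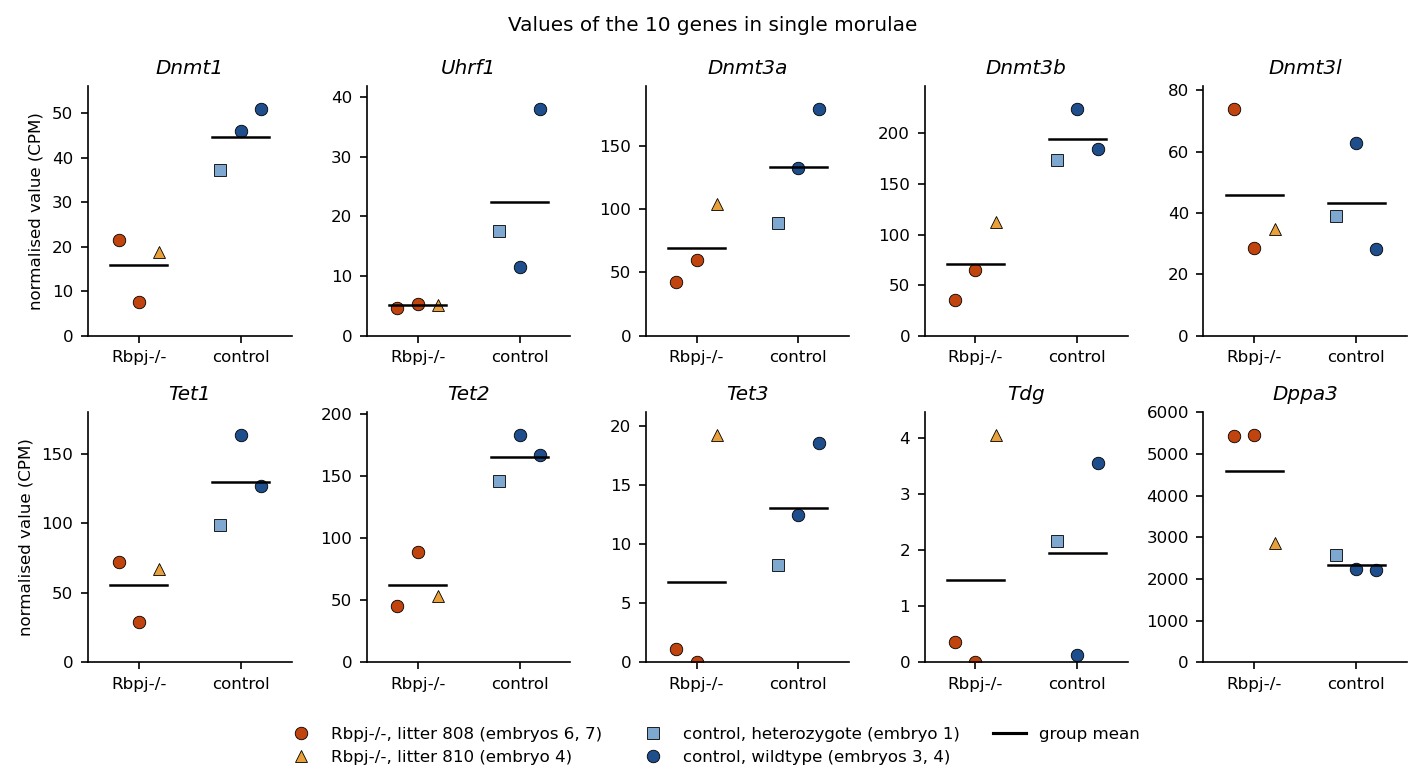
Normalised values (CPM, vertical axes from 0, a scale per gene) of the 10 genes in each embryo, Rbpj-/- left and control right, with bars at the group means. All 3 Rbpj-/- embryos lie below all 3 controls for Dnmt1, Uhrf1, Dnmt3b, Tet1 and Tet2 and above them for Dppa3, while for Tet3 Rbpj-/- embryo 4 of litter 810 (19.2) lies above every control.

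Tet1 and Tet2, which oxidise methylcytosine, were lower in every Rbpj-/- embryo than in every control. Tet1 had values of 71.9, 29.0 and 66.8 in Rbpj-/- embryos, against 98.4, 163 and 127 in controls. Embryo 7 was the lowest, as it was for Dnmt1. Tet1 (chr10:62804570-62908996, minus strand) fell by 1.45 on the log2 scale between littermates (SE 0.40, limma adjusted p = 0.0369). Tet2 had values of 45.0, 89.2 and 53.3 in Rbpj-/- embryos, against 146, 183 and 167 in controls. In this gene embryo 7 was the highest of the mutants, and the highest mutant was still well under the lowest control. Tet2 (chr3:133463679-133545139, minus strand) fell by 1.36 between littermates (SE 0.33, limma adjusted p = 0.0222). With all 6 embryos the limma adjusted p was 0.202 for Tet1 and 0.1703 for Tet2.

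Tet3, the TET enzyme of the oocyte and zygote, differed between the mutant of litter 810 and those of litter 808. Litter and embryo cannot be told apart in that difference. Its values were 1.09 and 0 in Rbpj-/- embryos 6 and 7 of litter 808 and 19.2 in Rbpj-/- embryo 4 of litter 810, against 8.22, 12.4 and 18.6 in controls. The mutants of litter 808 lay below every control, and the mutant of litter 810 lay just above the highest. These values came from 3, 0 and 204 reads in Rbpj-/- embryos and 107, 184 and 277 reads in controls. At the level of the controls the library of embryo 6 would have held 22.7 to 51.1 reads of Tet3 and that of embryo 7 33.4 to 75.5. With 3 reads as the limit for embryo 7, the lowest control was at least 11.1-fold higher than that embryo. Tet3 (chr6:83362373-83459084, minus strand) passed between littermates at -3.22 ± 0.73 (limma adjusted p = 0.0185), a fitted value that depends on the pseudocount. The difference between the mutants, litter 810 minus litter 808, was 3.80 ± 0.98 on the log2 scale (limma unadjusted p = 0.00337, adjusted p = 0.0705). In that contrast, added after the data were seen, 221 genes of the table were higher and 77 lower at an adjusted p under 0.05 by limma, and none of the 10 was among them.

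Tdg, the glycosylase that completes active demethylation, had few reads. It had values of 0.363, 0 and 4.05 in Rbpj-/- embryos, against 2.15, 0.135 and 3.55 in controls. As few as 1, 0 and 43 reads in Rbpj-/- embryos and 28, 2 and 53 reads in controls stood behind them, and the groups overlapped. Tdg (chr10:82629828-82650799, plus strand) did not pass between littermates, at -1.12 ± 0.81 with a 95% interval of -2.94 to 0.70 (limma adjusted p = 0.380).

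Dppa3, the maternal protector of methylation, was the single gene of the 10 that was higher in Rbpj-/- embryos. Its values were 5435, 5456 and 2864 in Rbpj-/- embryos, against 2574, 2243 and 2223 in controls, and its mean ranked 9 among the 12125 genes. Every Rbpj-/- embryo lay above every control, by a wide margin in litter 808 and by a narrow one in litter 810. The mutants averaged 4585 ± 1491 and the controls 2347 ± 197 (SD, n = 3 each). Dppa3 (chr6:122626410-122630272, plus strand) rose by 1.22 on the log2 scale between littermates (SE 0.17, limma adjusted p = 0.00325) and was at 0.91 ± 0.31 over all 6 embryos (limma adjusted p = 0.209). The mutant of litter 810 was lower than those of litter 808 by 0.93 (SE 0.23, limma adjusted p = 0.0684). Of 12 markers of the oocyte and of maternal RNA 7 were in the table, with a sum of 86.4 to 161 in Rbpj-/- embryos and 68.1 to 84.2 in controls. None of the 7 passed between littermates. Of the defining ones Zp3 was at 35.2, 45.0 and 19.9 in Rbpj-/- embryos and at 21.9, 11.7 and 17.3 in controls. Zp1, Zp2, Mos, Oosp1 and Zar1 were not among the genes of the table. Of the 7, 2 were below 0 on the log2 scale between littermates, Bmp15 (-0.36) and Btg4 (-0.37). Zp3 was at 1.22 there and Padi6 at 0.25. Padi6 alone had a value of 107 in Rbpj-/- embryo 7, where the sum of the 7 was 161. The part of maternal RNA in the Dppa3 result was not tested.

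Counted together, 5 of the 10 genes (Dnmt1, Dnmt3b, Uhrf1, Tet1 and Tet2) were lower in all Rbpj-/- embryos than in all controls, where 12.8% of the 12099 genes tested were. Dppa3 was the 1 gene higher in all, where 8.91% of genes were. Between littermates limma called 6 of the 10 lower, against 11.3% of all genes, and 1 of the 10 higher, against 5.85%. The 10 genes, like the lists below, were chosen with earlier results of these data known, so that such counts describe the set and do not test it. The median log2 fold change of the 10 was -1.41 between littermates, beside -0.16 for all genes tested. The same medians over all 6 embryos were -1.36 and -0.11. There limma called 0% of all genes and edgeR's quasi-likelihood test also 0. Without adjustment, at a p under 0.05 by limma, 6 of the 10 were lower and 1 was higher, beside 11.4% and 5.03% of all genes (1377 lower and 608 higher, which quantile normalisation turned into 1120 lower and 879 higher). DESeq2 called Dnmt3b and Tet2 lower over all 6 embryos, where 1.91% of genes were, and Dppa3 higher, where 1.07% were. Quantile normalisation moved the median of all genes to 0.07 over all 6 embryos and to 0.10 between littermates, and turned the sign of none of the 10. An exact permutation test of each gene on its own (two-sided, 20 arrangements of 3 against 3 embryos) cannot go below p = 0.1. It gave 0.1 for the 6 genes without overlap, 0.2 for Dnmt3a, 0.4 for Tet3, 0.8 for Tdg and 0.9 for Dnmt3l.

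Calls between littermates rest on 2 Rbpj-/- embryos and 3 controls, and the embryo left out decided several of them. Without Rbpj-/- embryo 6 the limma adjusted p of Dnmt3a became 0.115 and that of Tet2 0.0818. Without Rbpj-/- embryo 7 that of Dnmt1 became 0.144 and that of Tet1 0.132. Without control embryo 1, 3 or 4, limma called 3, 2 and 2 of the 10, in that order. Dnmt3b and Dppa3 passed in each of these fits. In the fit of all 6 embryos, leaving out the mutant of litter 810 gave 7 calls among the 10, and leaving out any other embryo gave 0.

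Transcript length ran with the fold change over the whole table. When all genes were divided into 5 groups of equal size by their longest transcript, the median log2 fold change between littermates was 0.64 in the shortest group, then 0.16, -0.33 and -0.63, and -0.84 in the longest. Dppa3, with 0.833 kb, stood in the shortest group and Dnmt3l, with 1.82 kb, in the next. Dnmt1, Dnmt3a, Tet1, Tet2 and Tet3, with 5.87 to 14.4 kb, stood in the longest, Dnmt3b in the fourth, and Uhrf1 and Tdg in the middle one. After a smooth trend with length was taken out of each embryo, Dnmt3b was at -1.57 between littermates (limma adjusted p = 0.0124) and was the 1 gene of the 10 called lower, beside 6.7% of all genes. None of the 10 was called higher, beside 2.93%. Dppa3 was then at 0.30 ± 0.18 (limma adjusted p = 0.318), Dnmt1 at -1.11 (0.207), Tet1 at -0.87 (0.172), Tet2 at -0.73 (0.205) and Dnmt3a at -0.69 (0.252), each by limma. Tet3 kept most of its fold change, at -2.59 (limma adjusted p = 0.0552). The median of the 10 was -0.89, beside -0.20 for all genes. Depth ran with genotype, and its part in the length trend was not tested. With every library thinned to the depth of the shallowest, limma called 6 of the 10 between littermates, all of the 7 but Dnmt1 (adjusted p = 0.0521).

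**Figure D2:**
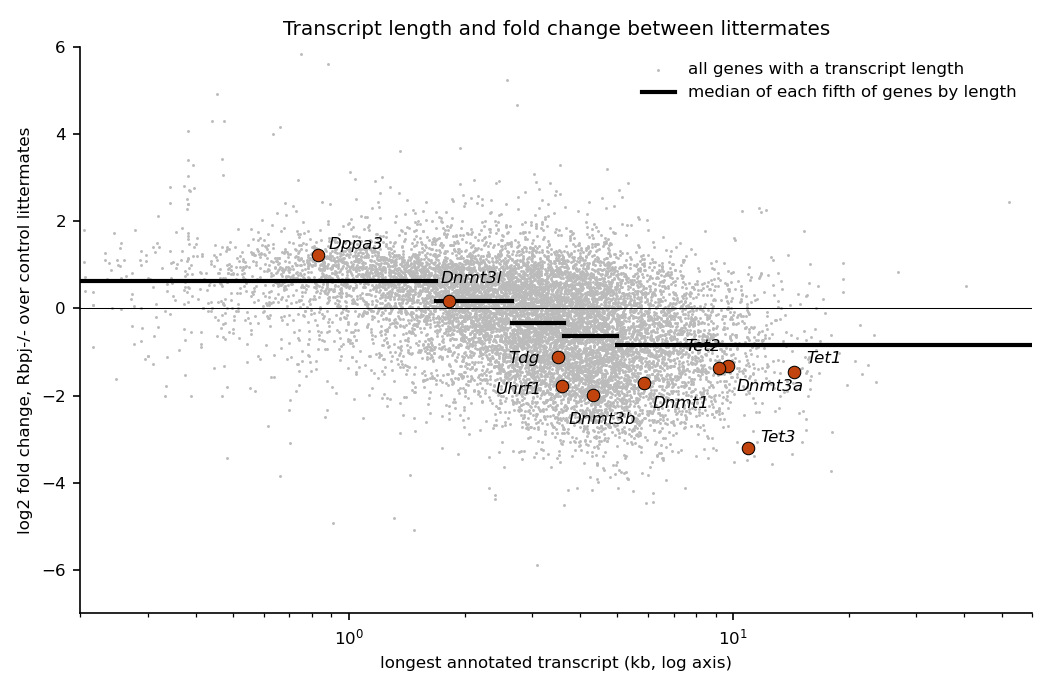
Log2 fold change between littermates (vertical axis, Rbpj-/- over control) against the longest annotated transcript (kb, log axis, outermost lengths not drawn), with all genes in grey, the median of each of the 5 length groups as a black bar and the 10 genes in red. The bars descend from 0.64 to -0.84, with Dppa3 (1.22) above the first and Dnmt3b (-1.99) and Tet3 (-3.22) well below theirs.

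The fold changes of the 3 fits are drawn together for each gene.

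**Figure D3:**
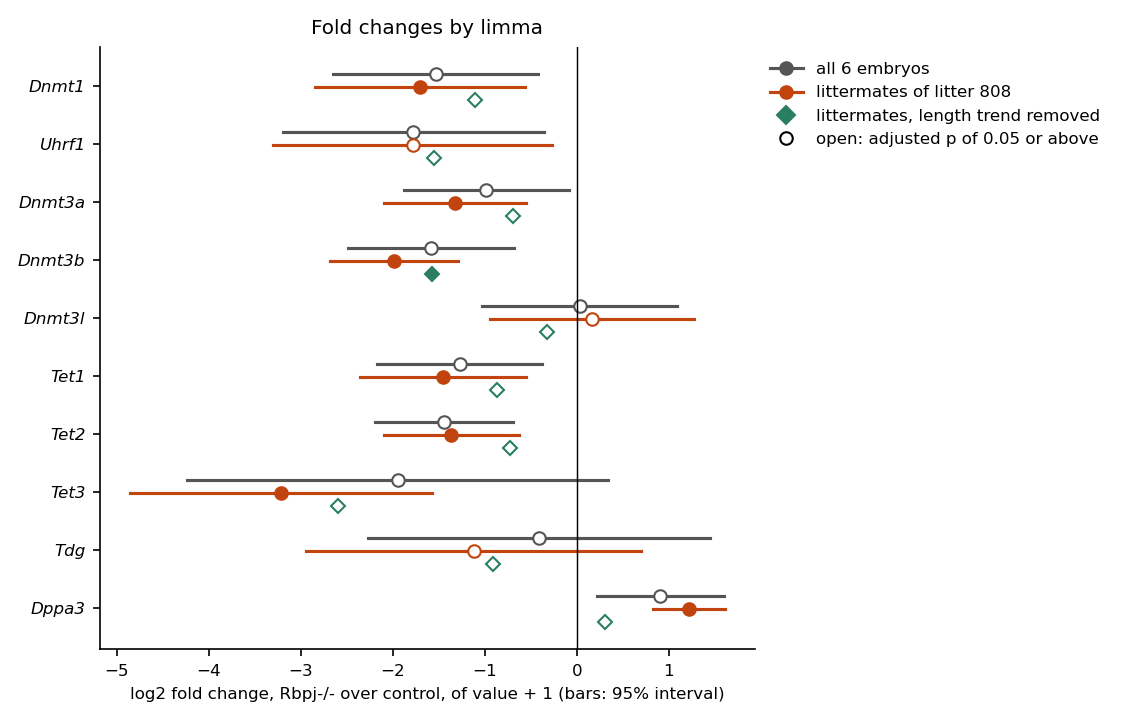
Log2 fold change of value + 1 (Rbpj-/- over control) by limma for all 6 embryos (grey), between littermates (red) and between littermates with the length trend removed (green diamonds), with 95% intervals for the first pair and filled symbols for an adjusted p under 0.05. Filled red symbols mark 7 genes, no grey symbol is filled, and the 1 filled diamond is Dnmt3b (-1.57).

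Between genes, levels were compared per kilobase of the longest transcript. In controls the order by that length was Dppa3, Dnmt3b, Dnmt3l, Tet2, Dnmt3a, Tet1, Dnmt1, Uhrf1, Tet3 and Tdg. Dppa3 averaged 5504 ± 1789 per kb in Rbpj-/- embryos and 2817 ± 236 in controls, and Dnmt3b, the next in controls, 16.4 ± 9.06 in Rbpj-/- embryos and 44.9 ± 6.19 in controls (SD, n = 3 each). In Rbpj-/- embryos Dnmt3l (25.2 ± 13.5) stood above Dnmt3b, with ranges that overlapped. In controls each gene from Dnmt3l down to Uhrf1 overlapped its neighbour, as Tet3 did Tdg, and gaps lay below Dppa3, Dnmt3b and Uhrf1. The order depended on the length used. Per kilobase of each gene's median transcript, a choice added after the data were seen, Tet1 (93.2 in Rbpj-/- embryos and 216 in controls on average) and Dnmt3a (84.0 and 163) followed Dppa3 and stood above Dnmt3b (17.3 and 47.3). That median is 599.5 bases for Tet1 and 820.5 for Dnmt3a, whose longest transcripts have 14369 and 9685 bases. Levels, sums and ratios by the median transcript thus rest on short annotated transcripts of these genes.

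Writers and erasers were lower together in sums per kilobase. Each gene is divided by the same length in every embryo, so these sums keep the trend of fold change with transcript length. With that trend removed, Dnmt3b alone of these genes was called between littermates. The 3 Tet genes summed to 10.0045, 11.7 and 12.2 per kb in Rbpj-/- embryos, against 23.5, 32.5 and 28.7 in controls. The sum was close in the 3 mutants, and Tet3 made up 14.4% of it in embryo 4, against 0.998% and 0% in embryos 6 and 7 and 3.21% to 5.92% in controls. By the median transcript the Tet3 share was 2.89% in embryo 4, 0.162% and 0% in embryos 6 and 7 and 0.730% to 1.34% in controls, and in both versions embryo 4 lay above the controls. Dnmt1, Dnmt3a and Dnmt3b summed to 16.2, 22.5 and 40.1 per kb in Rbpj-/- embryos, against 55.7, 73.4 and 69.8 in controls. Both sums were lower in all mutants than in all controls (exact permutation p = 0.1 each, the smallest that 3 against 3 allows), although the Dnmt sums overlapped when each gene's median transcript length was used instead (exact p = 0.2). The ratio of erasers (the Tet genes and Tdg) to these writers was 0.623, 0.522 and 0.334 in Rbpj-/- embryos, against 0.434, 0.443 and 0.426 in controls. It lay on both sides of the controls (mean log2 difference 0.14, exact permutation p = 0.7). By the median transcript it was 2.15, 0.949 and 0.903 in Rbpj-/- embryos, against 1.45, 1.57 and 1.06 in controls, and the sign of the mean difference turned (-0.13, exact permutation p = 0.8).

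**Figure D4:**
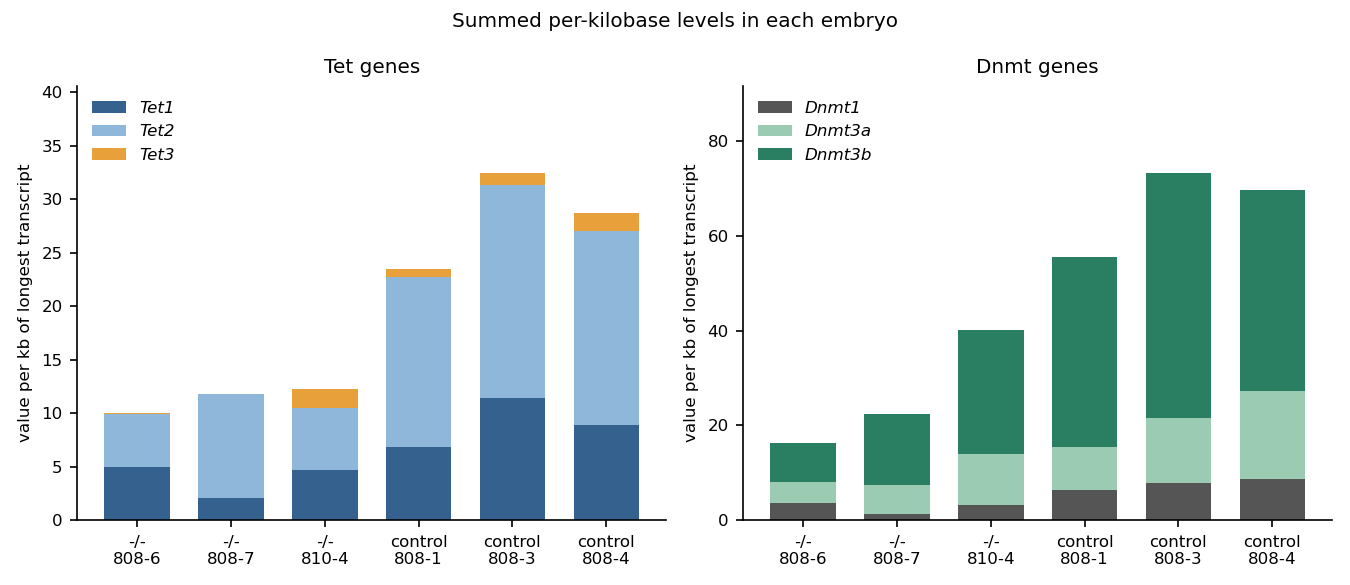
Stacked values per kb of the longest transcript for the Tet genes (left panel) and for Dnmt1, Dnmt3a and Dnmt3b (right panel) in each embryo, 3 Rbpj-/- embryos (-/-) left of 3 controls. The Tet stacks reach 10.0045 to 12.2 in Rbpj-/- embryos and 23.5 to 32.5 in controls, and the Tet3 portion is largest in the mutant of litter 810.

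The balance of Dppa3 to Uhrf1, the protein it keeps from chromatin, was 4958, 4343 and 2381 per kb in Rbpj-/- embryos, against 632, 838 and 252 in controls. The groups did not overlap (mean log2 difference 2.86, exact permutation p = 0.1), and this ratio sets a short transcript against a longer one. Dnmt3b over Dnmt3a was 1.84, 2.44 and 2.42 per kb in Rbpj-/- embryos, against 4.37, 3.80 and 2.30 in controls, with wildtype embryo 4 inside the range of the mutants (exact permutation p = 0.3). By the median transcript the ratio was below 1 in every embryo, at 0.165, 0.217 and 0.216 in Rbpj-/- embryos and 0.390, 0.339 and 0.206 in controls, with the same difference between groups.

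Genes that work with the 10 were taken from 8 lists, of which 93 of 105 genes were in the table and tested. Between littermates limma called 22 of the 93 lower (23.7%) and 5 higher (5.38%), beside 11.3% and 5.85% of all genes, so that the share of higher genes was near that of all genes. Their median log2 fold change was -0.25. With the length trend removed 12 were lower and 3 higher, beside 6.7% and 2.93% of all genes. Of the 22 lower genes 12 kept their call then, and of the 5 higher genes Tyms alone did.

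Among modulators of de novo methylation 5 of 12 were lower and none was higher, beside 11.3% and 5.85% of all genes. With the length trend removed Setd2 alone of them was called (limma adjusted p = 0.0147), and the others had limma adjusted p-values of 0.0633 to 0.167. They were histone methyltransferases, Setd2 (-1.82), Nsd1 (-1.45), which act on H3K36, Ehmt1 (-1.58) and Ehmt2 (-1.46), which act on H3K9, and the H3K4 demethylase Kdm1b (-3.15), needed for imprints in oocytes. Setd2 was at 135, 86.8 and 233 in Rbpj-/- embryos, against 377, 444 and 336 in controls. Kdm1b was at 1.81, 0 and 11.1 in Rbpj-/- embryos, against 12.6, 22.2 and 9.58 in controls, so that the mutant of litter 810 lay among the controls. At values this low its fold change depends on the pseudocount. Ehmt2 and Kdm1b, and below Prdm14, Rlim and Ahcyl1, were named after their values were seen, to complete the counts. Among 8 genes that protect imprints, Rif1 (-1.58) and Trim28 (-0.87), the corepressor of KRAB zinc finger proteins, were lower, of which Rif1 kept its call with the length trend removed. Of 12 partners of maintenance, the deubiquitinase Usp7 (-1.18) and the demethylase Kdm1a (-0.95) were lower and the replication clamp Pcna (1.24) was higher, and none of the 3 was called with the length trend removed. Called lower and higher were 25% and 0% of the 8 genes and 16.7% and 8.33% of the 12. The shares of all genes were 11.3% and 5.85%, near those of the 12.

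Among 14 partners of TET enzymes and suppliers of their cofactor, Sall4 (-2.48), Vprbp (-2.70) and Sin3a (-2.72) were lower and Prdm14 (2.40) was higher. These were 21.4% and 7.14% of the list, beside 11.3% and 5.85% of all genes. Sall4, a zinc finger factor of pluripotent cells, was at 53.7, 78.7 and 255 in Rbpj-/- embryos, against 340, 383 and 380 in controls. The mutant of litter 810 lay between its fellow mutants and the controls. Prdm14 had values of 4.36, 4.43 and 11.1 in Rbpj-/- embryos, against 0, 0.0674 and 0 in controls. In base excision repair, which follows TDG, the counts were near the shares of all genes (11.3% and 5.85%). There 2 of 16 genes were lower, the ligase Lig3 (-3.03) and Parp1 (-1.50), and the endonuclease Apex1 (1.12) was higher. With the length trend removed Lig3 and Parp1 kept their calls and Apex1 was at 0.35 (limma adjusted p = 0.384). Lig3 was at 27.6, 33.2 and 321 in Rbpj-/- embryos, against 233, 290 and 245 in controls. As with Tet3, the mutants of litter 808 lay below the controls and that of litter 810 above them.

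Of 7 readers of methylated CpG and subunits of their complexes, Gatad2a (-2.80), of the NuRD complex, was lower. That share, 14.3%, was near the 11.3% of all genes. In the supply of methyl groups 4 of 18 genes were lower, beside 11.3% of all genes, among them Mthfd1 (-1.52) and Mtrr (-1.26), of the folate and methionine cycles, and Ahcyl1 (-1.65), and thymidylate synthase, Tyms (1.01), was higher. Mthfd1 was at 57.3, 53.8 and 268 in Rbpj-/- embryos, against 145, 177 and 164 in controls, so that the mutant of litter 810 lay above every control. With the length trend removed Mtrr was no longer called (limma adjusted p = 0.0528). Among 6 genes of the Dppa family and of partners of Dppa3, the nuclear transport receptors Xpo1 (-2.07) and Ipo5 (-2.05) and the ubiquitin ligase Rlim (-1.80) were lower and Dppa4 (0.99) was higher. These were 50% and 16.7% of the 6, beside 11.3% and 5.85% of all genes. Dppa4 was at 646, 605 and 317 in Rbpj-/- embryos, against 333, 315 and 295 in controls, so that, unlike Dppa3, the mutant of litter 810 lay among the controls. All these values are log2 fold changes between littermates with an adjusted p under 0.05 by limma.

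**Figure D5:**
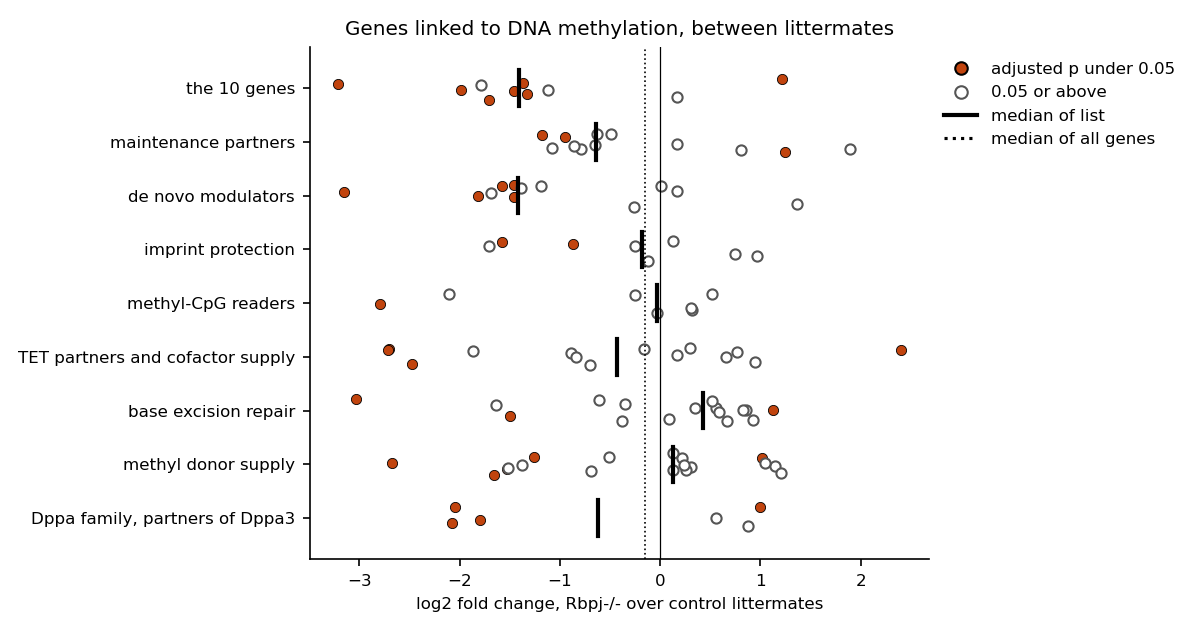
Log2 fold change between littermates (Rbpj-/- over control) for the 10 genes (top row) and the genes of 8 lists linked to DNA methylation, with filled points for a limma adjusted p under 0.05, open points otherwise, a bar at each median and a dotted line at the median of all genes (-0.16). The medians lie at -1.41 for the 10 genes and -1.42 for modulators of de novo methylation and at 0.43 for base excision repair, which became -0.89, -0.86 and -0.07 with the length trend removed (not drawn).

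The genes whose pattern over the 6 embryos was most like those of Dppa3 and Dnmt3b were sought among 7227 genes with a mean value of at least 10. Closest to Dppa3 were Tma7 (Pearson r = 0.997), Sf3a3 (0.993) and Ece2 (0.993). Tma7 was at 449, 459 and 234 in Rbpj-/- embryos, against 230, 200 and 193 in controls, and with 0.944 kb it is about as short as Dppa3. Closest to Dnmt3b were Def8 (0.998), Ei24 (0.997) and Nom1 (0.997). Def8 was at 103, 168 and 288 in Rbpj-/- embryos, against 389, 522 and 459 in controls. These correlations describe 6 embryos that also differ in depth, and they are the highest of all genes searched.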

How the data were processed

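RNA of 6 single E2.5 morulae was amplified by SMART-Seq chemistry, without strand. The deposited signal values are gene counts that the authors obtained with RSEM against GRCm38 (Ensembl 76) and scaled with TMM in edgeR, as CPM. The paper and the submitters' processing notes, which name RSEM 1.2.3, CASAVA 1.8.2 and cutadapt 1.3, give different RSEM releases. How the 12125 genes were filtered is not given in those sources. In 100% of values the deposited signal was a whole number of reads, within 0.01.

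Genes whose value exceeded 1 in 3 or more embryos were tested (12099). In R 4.3.3, limma 3.58.1 was run on log2(value + 1) with a variance trend (two-sided, Benjamini-Hochberg adjustment over all 12099, threshold 0.05). The fit of all 6 embryos held genotype only. The littermate fit added litter, as read from the sample titles, which absorbs the 1 embryo of litter 810. Labels name single embryos, which are the replicates. As alternatives, the pseudocount was 0.1 or 5, the filter was dropped or set to a mean of 10, and the variance trend was left out. Scaling was by median of ratios or by quantiles, and embryos were weighted by limma's array weights or left out in turn. The recovered reads were tested with edgeR 4.0.16 and DESeq2 1.42.0 or thinned to the shallowest library (10 draws). To remove the length trend, each gene's log2 value was taken as its deviation from its mean over the embryos. A loess curve (span 0.5) of these deviations on log2 length, centred on 0, was subtracted in each embryo. Lengths and coordinates came from GENCODE for GRCm38, which held 12019 of the genes. Floors of 3 reads cover counting error only, and the 95% intervals of fold changes come from the spread between embryos in limma.

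The 10 genes and the lists were chosen with earlier results of these data known. The text names the 10 genes, Rbpj, up to 3 genes of each list with the smallest littermate p, and for Dppa3 and Dnmt3b the 3 genes with the highest correlation among those with a mean of at least 10, without Gm-numbered, Rik and -ps symbols. In simulated data of 12099 genes, the littermate fit recovered 89% of genes changed by 2 on the log2 scale. The fit of all 6 embryos recovered 98% of them. These shares describe the simulation only. Whether its spread between embryos matched that of the real embryos was not tested. In the real data limma called 0 genes over all 6 embryos.

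Pseudogene copies of Dnmt3a, Dnmt3b, Dnmt3l, Tdg and Dppa3 are annotated and could share reads with them, which was not tested. Of the list genes called between littermates, 1 is not reported here by name.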

Additional observations from a re-analysis of the deposited data

Results flagged for a closer look

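Tet3 differed between the Rbpj-/- embryos, which lay on opposite sides of the controls. The embryo of litter 810 exceeded those of litter 808 by 3.80 on the log2 scale (limma unadjusted p = 0.00337, adjusted p = 0.0705 over all genes), at 204 reads against 3 and 0. Litter and embryo cannot be told apart here, since litter 810 gave 1 embryo.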

How the results depend on the processing

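Of the values of the 10 genes over all 6 embryos under the alternatives, 153 kept their direction and side of the threshold, 16 passed it and 6 changed sign. Between littermates 129 kept both, 42 lost the call, 1 gained it and 3 changed sign. With all 6 embryos array weights called 1564 genes and 6 of the 10, and DESeq2 360 and 3. Leaving out each embryo in turn gave 0 to 2142 genes and 0 to 7 of the 10. The highest counts came without the mutant of litter 810, where the fit becomes the littermate comparison. Between littermates 2074 genes and 7 of the 10 were called. Without the variance trend limma called 268 genes and 1 of the 10 (Tet3), and with the length trend removed 1155 genes and 1 of the 10 (Dnmt3b). Quantile normalisation and edgeR called 4 of the 10 each, and leaving out an embryo gave 511 to 2494 genes and 2 to 7 of the 10. Leaving out Rbpj-/- embryo 6 or 7 left 1 Rbpj-/- embryo of litter 808, which was assumed to vary like the controls. Dnmt3l changed sign over all 6 embryos with array weights (-0.25), with the length trend removed (-0.35), and without Rbpj-/- embryo 6, control embryo 1 (-0.0079) or control embryo 4 (-0.23), in a range of -0.37 to 0.33 as each embryo was left out. Between littermates it did so with the length trend removed (-0.32), without Rbpj-/- embryo 6 and without control embryo 4 (-0.097), in a range of -0.50 to 0.83. Tdg passed the filter in 3 of the fits of both litters that left out an embryo, at -0.99 to 0.049, the highest without Rbpj-/- embryo 7. Apart from the smaller number of embryos, the cause of these moves was not tested. Fewest reads stood behind Tdg, at 0 to 53, and behind Tet3 and Uhrf1 in the Rbpj-/- embryos of litter 808. No paired analysis was possible because the labels name single embryos and give no pairs between the groups.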
